A study of Mus musculus with 309 samples.

Results

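Genes of oxidative phosphorylation were followed through mouse mammary tumours profiled by bulk poly(A) RNA-seq. The set was defined by gene name: the protein-coding genes of the mitochondrial genome (mt-Nd, mt-Co, mt-Atp and mt-Cytb), and the nuclear genes named Nduf, Sdh, Uqcr, Cox4 to Cox8 and Atp5. These names matched 114 of 55291 gene symbols. After 13 names of pseudogenes ending in -ps and 5 genes under a mean of 1 CPM (a gene's share of a tumour's total count, scaled to a common total) were left out, 96 members remained, 13 mitochondrial and 83 nuclear. By name, 38 of the nuclear members belonged to complex I, 4 to complex II, 8 to complex III, 16 to complex IV and 17 to complex V. All 96 passed the filter on low counts in every comparison, and 94 were placed in the GENCODE M21 annotation of mm10. Some names sit uneasily in their class: Ndufa4 is counted under complex I although the protein is now placed in complex IV, Ndufa4l2 is its relative, and Cox7a2l encodes a factor that joins complexes III and IV. The carrier protein gene Ndufab1 was not matched by the names and is not a member.

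The data comprised 309 tumours of 24 models, in 100 groups of model and treatment. They were untreated (64 tumours of 18 models), or treated with trametinib (65 of 22 models), an inhibitor of the kinase MEK, erlotinib (66 of 22), an inhibitor of the epidermal growth factor receptor, carboplatin plus paclitaxel (66 of 22), a DNA crosslinking agent with a microtubule poison, or anti-PD1 plus anti-CTLA4 (48 of 16), antibodies that block immune checkpoints. The labels name each model and treatment but give no genotype, strain, age, dose or time on treatment. Most groups held 3 tumours, described as individual tumours, and nothing says whether those of a group came from separate animals, so p-values measure the spread between these samples. A list of 10 tumour markers held Epcam, Krt8, Krt18, Krt5, Krt14, Cdh1, Cldn3, Cldn4, Cldn7 and Vim, the last a mesenchymal gene. Their summed counts lay between 2110 and 9585 CPM in every tumour. Because Vim is part of the sum, it does not show how epithelial a tumour was. In bulk tissue, a change in the number of cells of one type and a change in RNA per cell cannot be told apart.

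Oxidative phosphorylation makes ATP at the inner mitochondrial membrane. Complex I (NADH dehydrogenase) and complex II (succinate dehydrogenase) pass electrons to ubiquinone, complex III (cytochrome bc1) hands them to cytochrome c, complex IV (cytochrome c oxidase) reduces oxygen, and complex V (ATP synthase) uses the proton gradient. Complexes I, III, IV and V are built from subunits of both genomes, complex II from nuclear genes alone. The mitochondrial genes are transcribed as long polycistronic RNAs inside the organelle and cut at the tRNAs between them, whereas nuclear subunits are transcribed one by one and imported, many under the factors NRF1, GABP and YY1.

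Several mitochondrial genes share their sequence with a stretch of the nuclear genome, and this sets how their counts can be read. On chromosome 1, mm10 carries 7 annotated pseudogenes between bases 24611535 and 24616197 (reverse strand) that copy mt-Co1, mt-Co2, mt-Atp6, mt-Co3, mt-Nd3, mt-Nd4l and mt-Nd4 in their mitochondrial order. The copies Gm28661 of mt-Co2, Gm10925 of mt-Atp6, Gm28437 of mt-Co3 and Gm10222 of mt-Nd4l differed at 0 of the 681, 678, 783 and 294 bases compared. Gm28438 differed from mt-Nd3 at 1 of 345 bases, T3C counted from the first base of the mt-Nd3 transcript (chromosome M, base 9461). The first 60 bases of both are shown because this base, in capitals, is the only one in the overlap that can tell a read of the gene from a read of the copy (mt-Nd3 at chrM:9459-9518, forward; Gm28438 at chr1:24613060-24613119, reverse; GENCODE M21 transcripts).
mt-Nd3: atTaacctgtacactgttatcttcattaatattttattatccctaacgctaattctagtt
Gm28438: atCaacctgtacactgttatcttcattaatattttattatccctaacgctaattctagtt

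Counts were divided between gene and copy accordingly. Averaged over all tumours, mt-Co2 held 277 CPM and its copy 4391, mt-Atp6 held 228 and its copy 3902, mt-Co3 held 305 and its copy 3383, and mt-Nd3 held 39.6 and its copy 191. Of each pair's counts, a median of 3.80% stood under mt-Co2 (range over tumours 0.0993% to 37.4%), 4.55% under mt-Atp6 (1.01% to 32.2%), 6.52% under mt-Co3 (0.841% to 40.8%), 16.2% under mt-Nd3 (1.25% to 99.4%), 50.0% under mt-Nd4l (0% to 100%), 90.8% under mt-Co1 (32.6% to 99.6%) and 100% under mt-Nd4 (85.4% to 100%). The division varied widely between tumours for mt-Co2, mt-Atp6, mt-Co3 and mt-Nd3, so the listed values of these genes and of mt-Nd4l are uncertain. The main fit of each treatment comparison and the set levels were also computed with the copies' counts added. The tests with part of the tumours, within single models and between models were not. The copies together took a median of 1.29% of all counts (0.255% to 4.13%). Of the other mitochondrial members, mt-Nd1, mt-Nd2, mt-Nd5 and mt-Cytb have none of these 7 copies, mt-Nd4 kept most of its counts in every tumour, and mt-Co1 kept most in the median tumour but as little as 32.6% in one, so its level is uncertain in some tumours. These 6 are called the 6 genes less affected by copies.

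**Figure D1:**
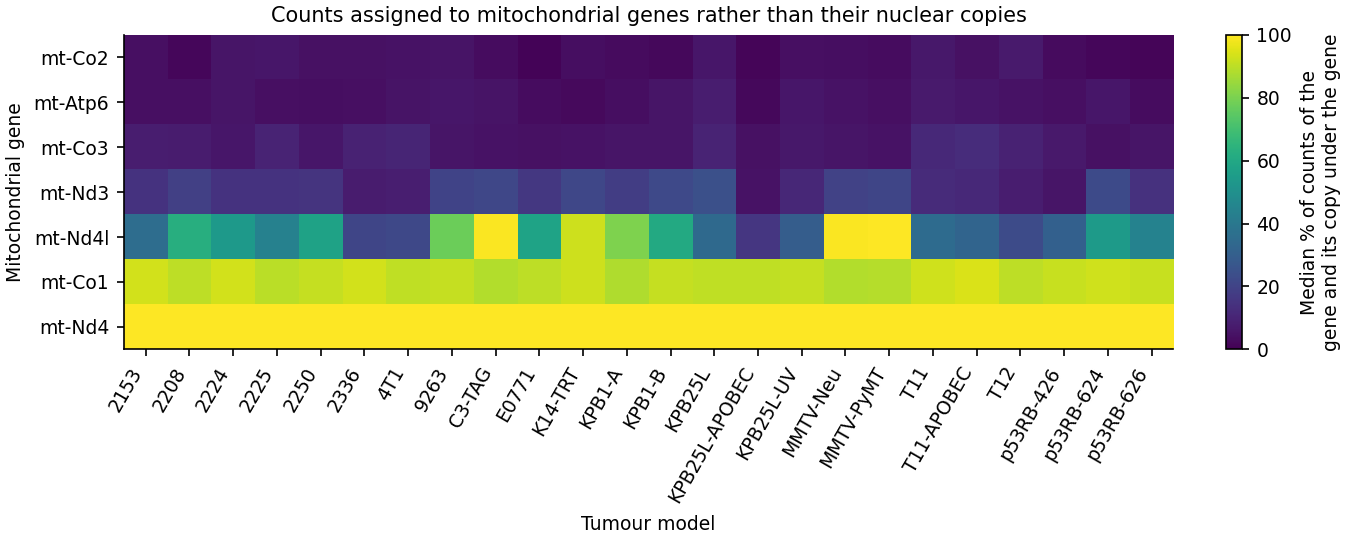
Share of the counts of each mitochondrial gene and its nuclear copy that stood under the gene, as the median per model in percent (colour), for 7 pairs (rows) in 24 models (columns). The medians over all tumours run from 3.80% for mt-Co2 to 100% for mt-Nd4, and mt-Nd4l differs between models over the whole scale.

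A further pair of mitochondrial genes overlaps. The end of mt-Atp8, which encodes a small subunit of ATP synthase, shares 43 bases with the start of mt-Atp6, which encodes its proton channel, so reads in the overlap belong to both. The copy Gm10925 matches mt-Atp6 at all 678 bases compared. Part of the 204 bases of mt-Atp8 is thus also shared with this copy. The level of mt-Atp8 and its changes given below are uncertain to that extent, and no count of a copy was added to it. The overlap is shown (chrM:7912-7969, forward), with the first codon of mt-Atp6 in capitals.
mt-Atp8: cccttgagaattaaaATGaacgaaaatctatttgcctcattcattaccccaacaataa

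On the nuclear side, RefSeq promoters (GRCm38.p6, 250 bases before to 50 after the start) were found for 67 of the 83 members, and were searched on both strands. The NRF1 core, whose letters are the capitals in the Cox6a1 stretch shown here, was present in 5 of the 67 (7.46%; Atp5g2, Atp5k, Cox6a1, Ndufa11 and Uqcrc1), against 1.07% of 27025 promoters. The YY1 core AAGATGGCG was present in 7 (10.4%; Atp5j, Atp5j2, Ndufa9, Ndufc1, Ndufs4, Ndufs6 and Ndufs7), against 1.64%. The ETS core CCGGAAGT, which GABP binds, was present in 5 (7.46%; Atp5h, Cox8a, Ndufs3, Uqcr11 and Uqcrh), against 4.31%. A stretch with an NRF1 core and a stretch with an ETS core are shown, motif in capitals, for genes whose levels are described next (Cox6a1 at chr5:115349081-115349140 and Uqcr11 at chr10:80406848-80406907, both reverse strand). A match is a description of the letters and not a binding site.
Cox6a1: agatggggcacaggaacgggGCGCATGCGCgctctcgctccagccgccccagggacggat
Uqcr11: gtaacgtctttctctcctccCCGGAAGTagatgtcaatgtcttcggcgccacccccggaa

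In untreated tumours several mitochondrial messages stood above every nuclear core subunit named here in counts per length. Over 62 untreated tumours (16 models of 3 or more) the median was 5967 CPM per kilobase of transcript for mt-Co1, the catalytic subunit of complex IV, 3046 for mt-Cytb, the only mitochondrial subunit of complex III, 2291 for mt-Atp8, and 2483 for mt-Nd1, 1692 for mt-Nd4, 1294 for mt-Nd2 and 702 for mt-Nd5, subunits of the membrane arm of complex I. The genes whose counts are shared with copies were listed lower, at 372 for mt-Nd4l, 322 for mt-Co3, 228 for mt-Atp6, 204 for mt-Co2 and 89.3 for mt-Nd3. mt-Nd6, the one protein gene on the other strand of the mitochondrial genome, stood at 26.0. Among nuclear members the catalytic subunit of ATP synthase Atp5b led the core subunits at 451, followed by Cox4i1 (374), a nuclear subunit of complex IV, Uqcrc1 (312), a core protein of complex III, and Atp5a1 (277), the partner of Atp5b in the ATP synthase head. Core subunits of complexes I and II were lower: Ndufs1, an iron-sulphur subunit, stood at 127, Ndufv1, which binds NADH, at 71.5, Sdha, the flavoprotein of succinate dehydrogenase, at 91.1 and its iron-sulphur partner Sdhb at 82.4. The length used was the median over a gene's annotated protein-coding transcripts of any length. It was 533 bases for Uqcrc1, 651 for Ndufs1, 1916 for Atp5b and 2572.5 for Atp5a1. The order of nuclear members on this scale therefore depends on the annotation. Isoforms known from other tissues were lowest on this scale, from 5.58 for Ndufa4l2 down through Cox7a1 (2.49), Cox4i2 (2.1), Cox6a2 (1.45) and Cox6b2 (1.32) to Cox8b (0.501), beside 309 for Cox6a1, 225.6 for Cox6b1 and 286 for Cox8a, their ubiquitous partners.

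Levels differed between untreated models in all 96 members (edgeR quasi-likelihood test over 16 models, Benjamini-Hochberg adjusted p under 0.05), and this was also so for 98.1% of 22779 genes. The highest model mean exceeded the lowest by a median of 5.44-fold over the mitochondrial and 3.67-fold over the nuclear members. MMTV-PyMT was the highest model for 54 of 83 nuclear members and KPB1-A for 11, while p53RB-624 was the lowest for 14 and 2153 for 12. For Uqcr11, a small subunit of complex III, the p53RB-624 tumours held 26.0, 26.4 and 31.1 CPM and the MMTV-PyMT tumours 175, 207 and 262 CPM, a 7.71-fold difference of means with no overlap. Cox4i1 ran from 169 ± 51.2 CPM (SD, n = 6) in KPB1-B to 492 ± 40.9 CPM (SD, n = 3) in MMTV-PyMT. The narrowest ranges belonged to Sdhd, a membrane anchor of complex II (1.702-fold), and Ndufv1 (1.74-fold), which were looked up after the values were seen.

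The mitochondrial genes ordered the models differently. As the mean of log2 CPM over its members, the mitochondrial set ran from 7.73 ± 0.19 (SD, n = 4) in C3-TAG to 9.50 ± 0.22 (SD, n = 3) in T11-APOBEC, and the nuclear set from 5.56 ± 0.17 (SD, n = 6) in p53RB-626 to 6.81 ± 0.15 (SD, n = 3) in MMTV-PyMT. MMTV-PyMT, highest in the nuclear set, was at 8.97 ± 0.38 (SD, n = 3) in the mitochondrial set, in the middle of the models. C3-TAG was the lowest model for 6 of 13 mitochondrial members and p53RB-624 for 4. mt-Co1 ran from 4995 ± 156 CPM (SD, n = 3) in p53RB-624 to 13287 ± 2952 CPM (SD, n = 3) in KPB1-A. mt-Atp8 ran from 124 ± 14.8 CPM (SD, n = 3) in MMTV-Neu to 1512 ± 1137 CPM (SD, n = 6) in KPB1-B, and mt-Nd6 from 4.91 ± 0.368 CPM (SD, n = 4) in C3-TAG to 45.6 ± 24.2 CPM (SD, n = 3) in T11-APOBEC. The single untreated E0771 tumour had a mitochondrial level of 7.56. Untreated models also differed in the library number in the labels, which moved with the mitochondrial share of counts, as described below. T11-APOBEC had lower numbers than p53RB-624 and most C3-TAG tumours, and the KPB1-B tumours averaged here had numbers far apart. The part of this number in the order of models was not tested.

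**Figure D2:**
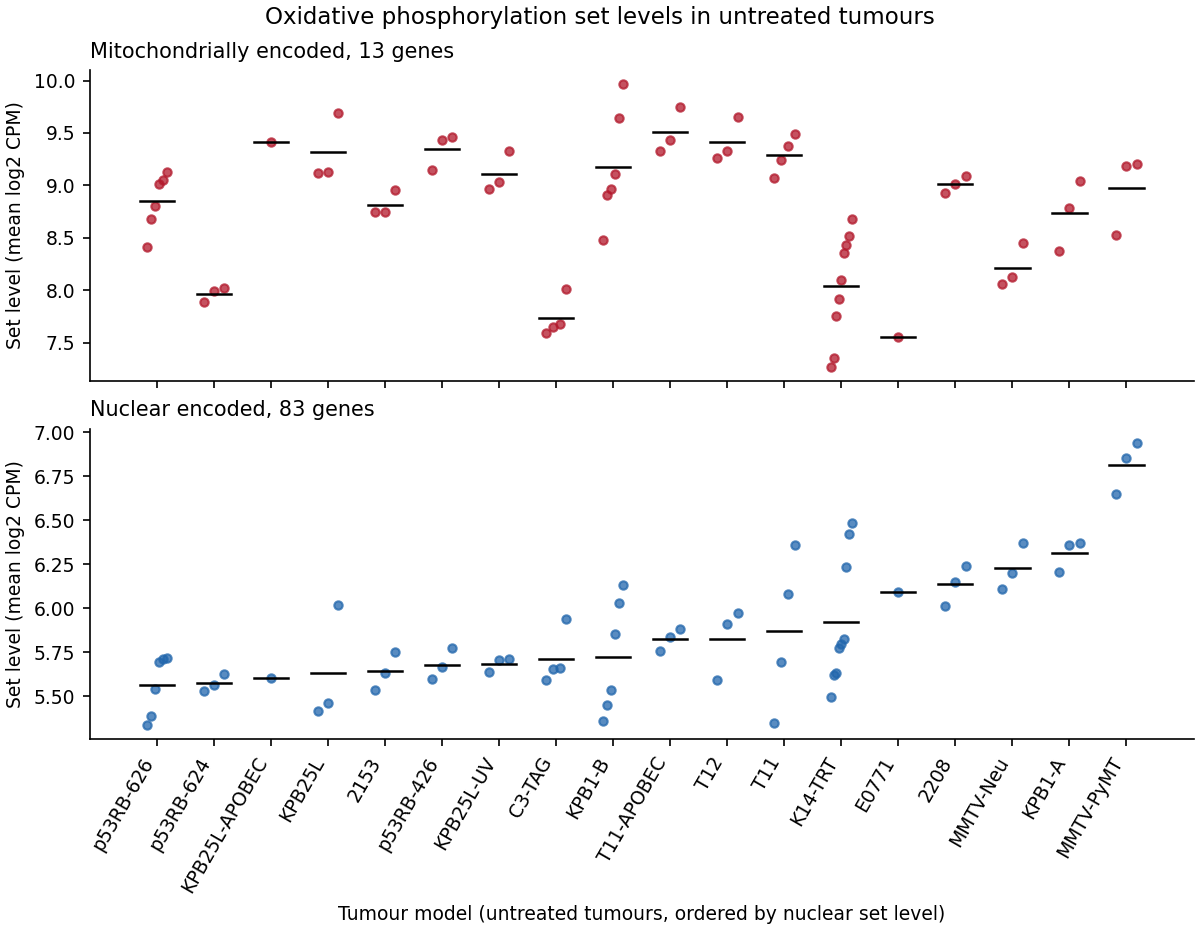
Mean log2 CPM over the 13 mitochondrial members (upper) and over the 83 nuclear members (lower) in each untreated tumour (points) by model, ordered by nuclear level, with bars at model means. The nuclear set ends with MMTV-PyMT at 6.81, whereas the mitochondrial set has its highest mean, 9.50, in T11-APOBEC.

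Tissue-restricted isoforms varied widely between models. Ndufa4l2, a relative of Ndufa4 known as a target of the hypoxia factor HIF1, reached 73.4, 128 and 183 CPM in KPB1-A and averaged 1.66 ± 0.945 CPM (SD, n = 9) in K14-TRT. The same model was highest for Cox6b2, the testis form of a complex IV subunit, at 13.3 ± 2.05 CPM (SD, n = 3) against 0.193 ± 0.0519 CPM (SD, n = 3) in 2153, and for Cox4i2, the form known from lung, at 9.49 ± 1.53 CPM (SD, n = 3). Cox6a2, the heart and muscle form of another complex IV subunit, stood at 1.25, 21.3 and 37.9 CPM in the untreated T12 tumours, and reached 53.3 CPM in 1 of 3 untreated KPB25L tumours, so single tumours rather than whole groups were high. Cox8b, also a muscle form, reached 6.25, 10.5 and 22.2 CPM in MMTV-PyMT.

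A pair of subunits stood far apart in single models, in every arm; they were chosen after their values were seen. Ndufa5, an accessory subunit of complex I, held 515, 533 and 616 CPM in untreated 2208 tumours, against a median of 38.4 CPM over untreated tumours. It held 372, 489 and 517 CPM with trametinib, 725, 741 and 896 with erlotinib, 572, 587 and 863 with carboplatin plus paclitaxel and 499, 515 and 551 with the antibodies, so every 2208 tumour was high. Atp5o, the stalk subunit of ATP synthase that confers oligomycin sensitivity, held 481, 492 and 691 CPM in untreated 2153 tumours against a median of 147 CPM, and 509, 558 and 603 CPM with trametinib, 468, 511 and 525 with erlotinib, 758, 892 and 1166 with carboplatin plus paclitaxel and 865, 923 and 925 with the antibodies. Again all arms of the model were high.

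Within groups of model and treatment, the variation of members was compared within and between the sets. Over 307 tumours, after group means were removed, log2 CPM of the 6 mitochondrial genes less affected by copies correlated at a median Pearson r of 0.83 (15 pairs, 0.69 to 0.94), and all 13 mitochondrial members at 0.27 (78 pairs, -0.33 to 0.94). mt-Atp8 correlated with them at a median of 0.79 and mt-Nd6 at 0.20. Pairs of nuclear members correlated at a median of 0.61, with 0.63 for pairs of one complex and 0.60 for pairs of different complexes. The mitochondrial set level and the nuclear set level correlated at -0.06, a value that pools members of opposite sign. With nuclear members, the 6 genes less affected by copies all had a negative median r, from -0.47 for mt-Nd5 to -0.07 for mt-Nd1. mt-Atp8 and mt-Nd4l were at -0.40. The median was positive for mt-Atp6 (0.35), mt-Co2 (0.34), mt-Nd3 (0.32), mt-Nd6 (0.14) and mt-Co3 (0.08). The genes of a pair share each library and its depth, so these values are descriptions. Several large core subunits moved little with the other nuclear members: the median r was -0.11 for Uqcrc2, a core protein of complex III, 0.03 for Ndufs1, 0.11 for Sdha and 0.18 for Atp5b. Cox6a2 followed the mean log2 CPM of 19 skeletal muscle markers at 0.93 and Cox8b at 0.80, whereas Ndufa4l2 followed that of the glycolysis and hypoxia list at 0.40.

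The spread inside groups was larger for the mitochondrial members. The median within-group SD of log2 CPM was 0.64 for the mitochondrial and 0.28 for the nuclear members, against 0.48 over all tested genes. The median share of variance lying between models was 41.2% for mitochondrial and 55.2% for nuclear members, against 64.9% over all genes. Complex II had, of the 5 nuclear complexes, the smallest median SD, 0.20, and the largest share between models, 69.7%.

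Total counts ran from 12.1 M to 226.2 M (mega-counts) per tumour (median 78.6 M), and the mitochondrial share of counts moved with the library number in the labels. Split into 4 consecutive ranges of that number, it had a median of 4.77% in the lowest (6 tumours), 3.40% in the second (102), 2.06% in the third (136) and 1.68% in the highest (65). Median totals in these ranges were 53.9, 27.0, 83.9 and 126 M counts. Treatments were spread unevenly: 15 untreated, 39 trametinib, 39 erlotinib and 9 carboplatin plus paclitaxel tumours lay in the second range, whereas 33 carboplatin plus paclitaxel, 30 antibody and 2 untreated tumours lay in the highest. Among untreated tumours the median share was 3.07% in the second range (15 tumours) and 1.93% in the third (41). The split was also seen among untreated tumours of one model. In KPB1-B, the 3 libraries of lower number had mitochondrial shares of 5.25%, 6.44% and 6.06%, and the 3 of higher number 1.96%, 2.64% and 2.44%. In p53RB-626 the corresponding values were 3.07%, 2.93% and 2.80%, and 1.66%, 1.93% and 2.10%. What the number stands for is not stated, and its part in the treatment differences was not tested beyond one step: each comparison was repeated with untreated tumours whose number lay within 150 of the mean of the treated group, called adjacent tumours here.

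**Figure D3:**
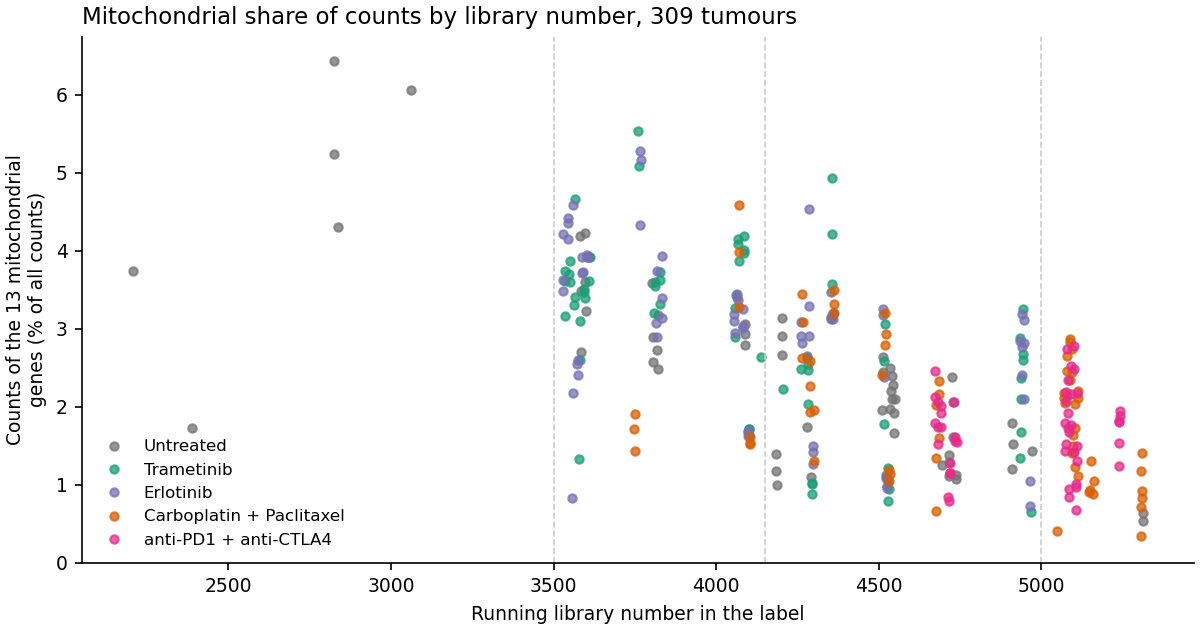
Mitochondrial share of counts in percent (vertical) against library number (horizontal) for 309 tumours coloured by treatment, with dashed lines between the 4 ranges. The medians of the 4 ranges fall from 4.77% to 1.68%, and the colours are not spread evenly over them.

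Trametinib was compared with no treatment in 16 models (48 against 54 tumours, model as a term). Of the mitochondrial members 1 of 13 was called higher and 0 lower, and of the nuclear members 4 of 83 higher and 4 lower, which is 7.69% and 9.64% of the members against 31.1% of all 23042 genes (14.4% higher, 16.7% lower). The share of members that changed was thus below that of genes in general. Median log2 changes were 0.17 over the mitochondrial and 0.02 over the nuclear members, beside -0.01 over all genes. The nuclear split was 6 higher and 3 lower with DESeq2-style size factors.

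The largest change was in Ndufa4l2. It had a median of 12.1 CPM (1.22 to 243) with trametinib and 6.22 CPM (2.38 to 183) without, and was higher in 13 and lower in 3 of 16 models. The arms overlapped across models, and within models the log2 change was 0.98 ± 0.18 (SE, adjusted p = 7.29e-06). It was 0.81 (adjusted p = 0.00146) with adjacent tumours. Ndufv3, an accessory subunit beside the NADH-binding site of complex I, was also higher, with medians of 59.7 CPM (24.9 to 114) and 42.4 CPM (27.1 to 127) and a log2 change of 0.29 ± 0.06 (SE, adjusted p = 0.00021). It was higher in 12 and lower in 4 of 16 models. Cox7a2l rose by 0.19 ± 0.05 (SE, adjusted p = 0.00362) and Ndufb9, an accessory subunit of the membrane arm of complex I, by 0.17 ± 0.06 (SE, adjusted p = 0.0319).

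The 4 members that fell were core subunits. Atp5b had a median of 787 CPM (454 to 1145) with trametinib and 848 CPM (469 to 1396) without, a log2 change of -0.19 ± 0.04 (SE, adjusted p = 5.88e-05), and was higher in 3 and lower in 13 of 16 models. Its partner Atp5a1 changed by -0.15 ± 0.03 (SE, adjusted p = 0.000312), Ndufs1 by -0.12 ± 0.04 (SE, adjusted p = 0.0132) and Uqcrc1 by -0.12 ± 0.04 (SE, adjusted p = 0.0361). These were small steps on a wide base, with the arms overlapping almost fully and most models going the same way (12 or 13 of 16 lower). The other core subunits did not pass the test: Sdha was at -0.02 (adjusted p = 0.763), Sdhb at -0.05 (adjusted p = 0.445), Uqcrfs1, the Rieske protein of complex III, at -0.14 (adjusted p = 0.0577), Cox4i1 at 0.12 (adjusted p = 0.103) and Cox5a at -0.16 (adjusted p = 0.0837). The one mitochondrial call was mt-Co1, with medians of 11541 CPM (2390.3 to 17263) and 9547 CPM (4117 to 20079.6) and a log2 change of 0.17 ± 0.07 (SE, adjusted p = 0.0468). It was 0.07 (adjusted p = 0.325) with adjacent tumours and was also lost without MMTV-Neu, without muscle-rich tumours and without the filter on low counts.

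Genes that serve the complexes are given beside them, from lists by role. Of 29 genes for mitochondrial transcription, RNA processing and DNA maintenance 0 rose and 14 fell (median -0.10), among them the mitochondrial DNA polymerase Polg at -0.20 ± 0.03 (SE, adjusted p = 1.65e-07), the helicase Twnk at -0.26 ± 0.04 (SE, adjusted p = 6.73e-07), the RNA polymerase Polrmt at -0.21 (adjusted p = 0.000763), the mRNA-stabilising Lrpprc at -0.26 (adjusted p = 2.27e-05) and the DNA-packaging factor Tfam at -0.17 (adjusted p = 0.00194). Of 14 regulators of mitochondrial biogenesis 4 fell: Pprc1 at -0.32 (adjusted p = 5.72e-06), Myc at -0.43 (adjusted p = 6.93e-05), Nrf1 at -0.14 (adjusted p = 0.000314) and Gabpa at -0.16 (adjusted p = 0.0407). Of 88 mitochondrial ribosome genes 1 rose and 23 fell (median -0.05), and of 19 carrier and inner membrane genes 6 fell, including the ADP/ATP carrier Slc25a5 at -0.26 (adjusted p = 5.96e-06) and cytochrome c, Cycs, at -0.21 (adjusted p = 0.0123). Of 22 glycolysis and hypoxia genes 8 rose and 0 fell (median 0.12), led by Bnip3, a hypoxia-induced mitophagy receptor, at 0.84 ± 0.12 (SE, adjusted p = 6.69e-08), and Ndrg1 at 0.84 (adjusted p = 3.35e-06). All 12 proliferation markers fell. Markers of other cells were called too: 5 of 10 T and NK cell markers and 3 of 11 adipocyte markers were higher, 7 of 12 endothelial and fibroblast markers were higher and 5 lower, and 3 of 10 macrophage and 1 of 19 muscle markers were lower. Of the 10 genes on the epithelial list, which includes Vim, 2 were lower. The part of all these markers in the member changes was not tested. Of the assembly factors 3 rose and 2 fell of 43, and of 25 genes of the tricarboxylic acid cycle and pyruvate entry 4 rose, among them the pyruvate carrier Mpc1 at 0.40 (adjusted p = 6.57e-07), and 6 fell. With adjacent tumours the ribosome genes had 9 higher and 10 lower (median 0.01), the assembly factors 12 higher and 1 lower, the transcription list 2 higher and 10 lower, the regulators 7 lower, the carrier list 2 lower and the glycolysis and hypoxia list 12 higher. Beside these lists, 31.1% of all genes were called in all models (14.4% higher, 16.7% lower) and 32.3% with adjacent tumours. Counted in either direction, the regulator, ribosome and carrier lists were near the 31.1%. The assembly factors with adjacent tumours were near the 32.3%.

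With adjacent tumours (11 models, 33 against 31), edgeR called 0 mitochondrial members (0 also at an unadjusted p under 0.05) and 13 nuclear members higher and 5 lower, against 32.3% of all genes (17.1% higher, 15.2% lower). In the other 5 models, a split made after the data were seen, 9 mitochondrial members were higher and 0 lower, and 2 nuclear members were higher and 16 lower, against 21.7% of genes. In those models untreated and treated libraries carry distant numbers, so the library number and the treatment cannot be told apart.

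Erlotinib left both sets nearly without calls. In the same 16 models (48 against 54 tumours, sharing the untreated tumours with the other comparisons), edgeR called 0 of 13 mitochondrial members and 1 of 83 nuclear members, Cox7a2l, which was higher, against 4.43% of 23049 genes (1.83% higher, 2.6% lower). At an unadjusted p under 0.05, 5 mitochondrial members were higher and 0 lower, a count not set against genes in general. DESeq2 called 1 mitochondrial member and limma 0. Cox7a2l had medians of 147 CPM (74.8 to 332) with erlotinib and 115 CPM (71.6 to 299.9) without, and changed by 0.21 ± 0.04 (SE, adjusted p = 0.00286), but by 0.08 (adjusted p = 0.293) with adjacent tumours. mt-Co1 stood at 0.21 ± 0.07 (SE, adjusted p = 0.0523), higher in 13 and lower in 3 of 16 models. Median log2 changes were 0.22 and -0.01, beside -0.01 over all genes, and 12 of 13 mitochondrial values lay above 0. In limma on the authors' normalized table, the nuclear counts were 1 higher and 6 lower.

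Of the associated lists, the transcription list had 2 lower, the ribosome list 3 lower, and the carrier list 2 lower, the scaffold prohibitin Phb at -0.17 (adjusted p = 0.018) and Slc25a5 at -0.15 (adjusted p = 0.0356). Of the glycolysis genes 1 fell, pyruvate kinase Pkm at -0.18 (adjusted p = 0.0357), and 9 of 12 proliferation markers fell. Among all genes 4.43% were called (1.83% higher, 2.6% lower), near the shares of the ribosome and glycolysis lists. With adjacent tumours no member was called, against 3.82% of genes (1.49% higher, 2.33% lower). At an unadjusted p under 0.05, 2 mitochondrial members were then higher, and 1 nuclear member was higher and 10 lower, counts not set against genes in general. In the models without adjacent tumours 7 mitochondrial members were higher and 0 lower, and 1 nuclear member was higher and 4 lower, against 5.35%.

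The kinase inhibitors were also compared directly, in 22 models (65 against 66 tumours), where 39 tumours of each arm lay in the second range of library number. Of the mitochondrial members 1 was higher with trametinib, mt-Co3, and of the nuclear members 2, Ndufv3 and Ndufa4l2, with 0 lower, against 20.1% of 21601 genes (10.2% higher, 9.91% lower). Ndufv3 had medians of 60.04 CPM (24.9 to 164) with trametinib and 49.2 CPM (27.7 to 156) with erlotinib, a log2 difference of 0.27 ± 0.04 (SE, adjusted p = 1.79e-06), and was higher in 17 and lower in 5 of 22 models. Ndufa4l2 had medians of 13.2 CPM (1.22 to 243) and 8.55 CPM (1.13 to 175) and differed by 0.66 ± 0.17 (SE, adjusted p = 0.00284). The ranges overlapped for both genes, and most models went the same way. mt-Co3, whose counts were mostly under its copy, differed by 0.34 (adjusted p = 0.0486), a call that was lost when the copy was added. Of the glycolysis and hypoxia genes 14 of 22 were higher and 0 lower, with Bnip3 at 0.61 (adjusted p = 7.16e-05) and the carbonic anhydrase Car9 at 0.75 (adjusted p = 0.000248). Of the transcription list 7 of 29 were lower, and of the regulators 2 of 14, Myc at -0.22 (adjusted p = 0.00186) and Gabpa at -0.13 (adjusted p = 0.0168). Pdk1, the kinase that holds back pyruvate entry, was higher by 0.42 (adjusted p = 9.52e-06). Of markers of other cells, 6 of 10 for macrophages were lower, 5 of 10 for T and NK cells higher, and 6 of 12 for endothelial cells and fibroblasts higher and 5 lower, and their part in these differences was not tested.

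Tumours given carboplatin plus paclitaxel were set against untreated tumours in 16 models (48 against 54 tumours). Here the sets parted: of the mitochondrial members 0 were higher and 7 of 13 lower, and of the nuclear members 13 of 83 were higher and 1 lower. These are 53.8% and 16.9% of the members, against 19.4% of 23633 genes (12.6% higher, 6.81% lower), so the nuclear share was near that of genes in general. Median log2 changes were -0.46 over the mitochondrial and 0.11 over the nuclear members, beside 0.03 over all genes. The 13 and 1 nuclear calls became 33 and 0 with limma on the authors' table.

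The 7 lower mitochondrial genes were the 6 less affected by copies and mt-Atp8. mt-Nd2 had medians of 781 CPM (172 to 2900.4) with treatment and 1466 CPM (467 to 5578) without, and changed by -0.75 ± 0.13 (SE, adjusted p = 1.38e-05), higher in 3 and lower in 13 of 16 models. mt-Cytb had medians of 2777 CPM (625.3 to 8319.7) and 4110.0 CPM (1385 to 13933) and changed by -0.57 ± 0.10 (SE, adjusted p = 2.59e-05). The treated and untreated ranges overlapped for both, with the lower end reached only by treated tumours. mt-Atp8 changed by -1.04 ± 0.24 (SE, adjusted p = 0.000909), with medians of 222 CPM (4.32 to 824) and 495 CPM (77.3 to 2824.8). mt-Nd4 changed by -0.65 ± 0.12 (SE, adjusted p = 7.71e-05), mt-Nd5 by -0.68 ± 0.14 (SE, adjusted p = 0.000344), mt-Nd1 by -0.52 ± 0.11 (SE, adjusted p = 0.000662) and mt-Co1 by -0.46 ± 0.10 (SE, adjusted p = 0.000419). With the copies' counts added 11 of 13 were lower, mt-Co2 then at -0.29 (adjusted p = 0.0132) from 0.35 (adjusted p = 0.386) under its own name.

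The higher nuclear members named here were an isoform and accessory subunits. Cox6b2 rose most, from a median of 0.584 CPM (0.0411 to 15.3) to 1.25 CPM (0.126 to 28.5), a log2 change of 1.14 ± 0.19 (SE, adjusted p = 1.08e-05), and was higher in 15 and lower in 1 of 16 models. At these levels it contributed few counts to the set. Ndufa7 rose by 0.36 ± 0.09 (SE, adjusted p = 0.00301), Ndufa2 by 0.40 ± 0.12 (SE, adjusted p = 0.0158), Ndufc1 by 0.37 ± 0.12 (SE, adjusted p = 0.0158) and Ndufs4 by 0.28 ± 0.09 (SE, adjusted p = 0.013), all accessory subunits of complex I, and the ATP synthase membrane subunit Atp5l by 0.34 ± 0.10 (SE, adjusted p = 0.00704). Each of these 5 was higher in 12 of 16 models. The following core subunits were not called: Ndufs1 was at -0.07 (adjusted p = 0.186), Ndufv1 at 0.13 (adjusted p = 0.0949), Sdha at -0.02 (adjusted p = 0.739), Uqcrc1 at -0.02 (adjusted p = 0.86), Cox5a at 0.19 (adjusted p = 0.19), Atp5a1 at -0.08 (adjusted p = 0.114) and Atp5b at -0.04 (adjusted p = 0.61). The single nuclear member that fell, Uqcrc2, is a core protein of complex III and was named after its value was seen. It changed by -0.12 ± 0.04 (SE, adjusted p = 0.0407), higher in 3 and lower in 13 of 16 models.

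Of the 14 regulators 0 rose and 7 fell, among them Gabpa at -0.22 (adjusted p = 0.0338), Gabpb1 at -0.17 (adjusted p = 0.00112), Pprc1 at -0.24 (adjusted p = 0.00246), Nrf1 at -0.13 (adjusted p = 0.00346), Yy1 at -0.16 (adjusted p = 0.0322) and Myc at -0.33 (adjusted p = 0.0117). The list's median was -0.20. Of the transcription list 1 rose and 6 fell, with the transcription factor Tfb2m at -0.17 (adjusted p = 0.00106) and the tRNA processing factor Trmt10c at -0.21 (adjusted p = 0.00333). Assembly factors had 6 higher and 2 lower, ribosome genes 9 higher and 4 lower and the tricarboxylic acid cycle list 0 higher and 4 lower. The glycolysis and hypoxia list had a median of 0.04. Macrophage markers rose in 6 of 10, T and NK cell markers in 6 of 10 and endothelial and fibroblast markers in 4 of 12; their part in the member changes was not tested. With adjacent tumours edgeR called 0 of these markers and 0 assembly factors and ribosome genes, while 5 regulators and 2 genes of the transcription list were lower. Among all genes 3.68% were called there, and 19.4% in all models (12.6% higher, 6.81% lower). In all models the shares of the transcription, assembly, ribosome and tricarboxylic acid cycle lists called in either direction were near 19.4%.

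With adjacent tumours (9 models, 27 against 24) the mitochondrial calls were 0 of 13 and the nuclear calls 0 higher and 1 lower, against 3.68% of genes (2.03% higher, 1.65% lower). At an unadjusted p under 0.05 the mitochondrial counts were 0 higher and 0 lower and the nuclear ones 5 and 9, not set against genes in general. mt-Nd2 was then at -0.23 (adjusted p = 0.305), mt-Atp8 at -0.05 (adjusted p = 0.924) and Cox6b2 at 0.74 (adjusted p = 0.0821). In the other 7 models 8 mitochondrial members were lower, and 6 nuclear members were higher and 1 lower, against 15.1%. The nuclear calls also fell to 6 without muscle-rich tumours, and to 6 when the 3 KPB25L-UV tumours whose library names begin with KPB25L were left out, and to 2 to 4 when 1 tumour per group was left out, against 7 mitochondrial calls throughout.

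The antibodies against PD1 and CTLA4 were compared with no treatment in 12 models (36 against 41 tumours). Again mitochondrial members were lower, 8 of 13 with 0 higher, and nuclear members mostly higher, 12 of 83 with 2 lower. These are 61.5% and 16.9% of the members, against 8.3% of 22988 genes (4.14% higher, 4.15% lower). Median log2 changes were -0.47 and 0.09, beside 0.00 over all genes. In limma on the authors' table, the nuclear counts were 28 higher and 2 lower.

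mt-Atp8 had medians of 137 CPM (21.9 to 465) with the antibodies and 481 CPM (77.3 to 2824.8) without, and changed by -1.47 ± 0.22 (SE, adjusted p = 1.19e-05), higher in 1 and lower in 11 of 12 models. mt-Nd4 had medians of 1437 CPM (584 to 2756) and 2269 CPM (833 to 8229.8) and changed by -0.63 ± 0.10 (SE, adjusted p = 3.81e-05). It was higher in 0 and lower in 12 of 12 models, and treated tumours reached below the untreated range but not into its upper part. mt-Nd2 changed by -0.77 ± 0.12 (SE, adjusted p = 2.51e-05), mt-Nd5 by -0.68 ± 0.13 (SE, adjusted p = 0.000215), mt-Nd1 by -0.58 ± 0.12 (SE, adjusted p = 0.000546), mt-Cytb by -0.48 ± 0.10 (SE, adjusted p = 0.000546) and mt-Co1 by -0.25 ± 0.07 (SE, adjusted p = 0.0268). mt-Co3 was called at -0.47 (adjusted p = 0.0495) but stood at 0.034 with its copy added. mt-Nd3 and mt-Nd4l, not called under their own names, were lower with the copies, at -0.56 (adjusted p = 0.00158) and -0.54 (adjusted p = 0.0139).

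The 2 nuclear members that fell were the muscle isoforms. Cox6a2 had medians of 0.245 CPM (0.0155 to 4.12) and 1.12 CPM (0.0316 to 37.9), a log2 change of -2.34 ± 0.38 (SE, adjusted p = 4.06e-05), and was higher in 0 and lower in 12 of 12 models. Cox8b changed by -2.67 ± 0.54 (SE, adjusted p = 0.000643). Beside them, all 19 skeletal muscle markers were lower, with a median of -3.04. Over the whole series their summed level had a median of 50.9 CPM (6.95 to 997) in 48 antibody-treated and 207 CPM (6.93 to 9875) in 64 untreated tumours. Those tumours include models outside this comparison. The part of muscle tissue in the member changes was not tested beyond leaving out 44 muscle-rich tumours. The higher nuclear members included Ndufc1 at 0.43 ± 0.12 (SE, adjusted p = 0.0156), Atp5l at 0.30 ± 0.09 (SE, adjusted p = 0.0191) and Sdhd at 0.20 ± 0.06 (SE, adjusted p = 0.0193). Ndufs1 was at 0.12 ± 0.04 (SE, adjusted p = 0.0497), whereas Sdha at 0.10 (adjusted p = 0.0865), Uqcrc1 at 0.06 (adjusted p = 0.378) and Atp5b at 0.12 (adjusted p = 0.0655) did not pass.

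Of the 22 glycolysis and hypoxia genes 10 rose and 0 fell (median 0.27), with the phosphoglycerate kinase Pgk1 at 0.51 (adjusted p = 0.000467) and the enolase Eno1 at 0.26 (adjusted p = 0.00107). The transcription list had 4 higher and 0 lower, with Tefm, an elongation factor, at 0.21 (adjusted p = 0.0197), Lrpprc at 0.16 (adjusted p = 0.0203) and Tfam at 0.16 (adjusted p = 0.042). Ribosome genes had 11 higher and 2 lower, assembly factors 4 higher and 0 lower, and the tricarboxylic acid cycle list 4 higher, with Pdk1 at 0.41 (adjusted p = 0.000505), and 1 lower. Among the regulators only Perm1, a muscle coactivator, was called, at -0.73 (adjusted p = 0.0267). With adjacent tumours edgeR called 0 genes of the glycolysis, transcription, ribosome, assembly and regulator lists, and 15 of 19 muscle markers were lower. Among all genes 1.13% were called there, and 8.3% in all models (4.14% higher, 4.15% lower). In all models the shares of the assembly and regulator lists called in either direction were near 8.3%.

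With adjacent tumours (6 models, 18 against 18), 3 mitochondrial members were lower, mt-Nd4 at -0.35 (adjusted p = 0.0393), mt-Co3 at -0.72 (adjusted p = 0.0319) and mt-Atp6 at -0.57 (adjusted p = 0.0316). Most counts of mt-Co3 and mt-Atp6 stood under their copies, and this fit was not repeated with the copies added, so these calls are uncertain. Of the nuclear members 0 were higher and 1 was lower, Cox6a2 at -2.29 (adjusted p = 0.0393), against 1.13% of genes (0.211% higher, 0.918% lower). Ndufc1 was then at -0.03 (adjusted p = 0.927) and Atp5l at -0.01 (adjusted p = 0.98), so the higher nuclear calls were not found there. In the other models, a split made after the data were seen, more nuclear members were called than in all models. That count was not set against genes in general. The library number and the treatment cannot be told apart in those models. Leaving out 1 tumour per group left 3 to 6 mitochondrial and 2 to 4 nuclear calls, and leaving out MMTV-Neu gave 24 nuclear calls.

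**Figure D4:**
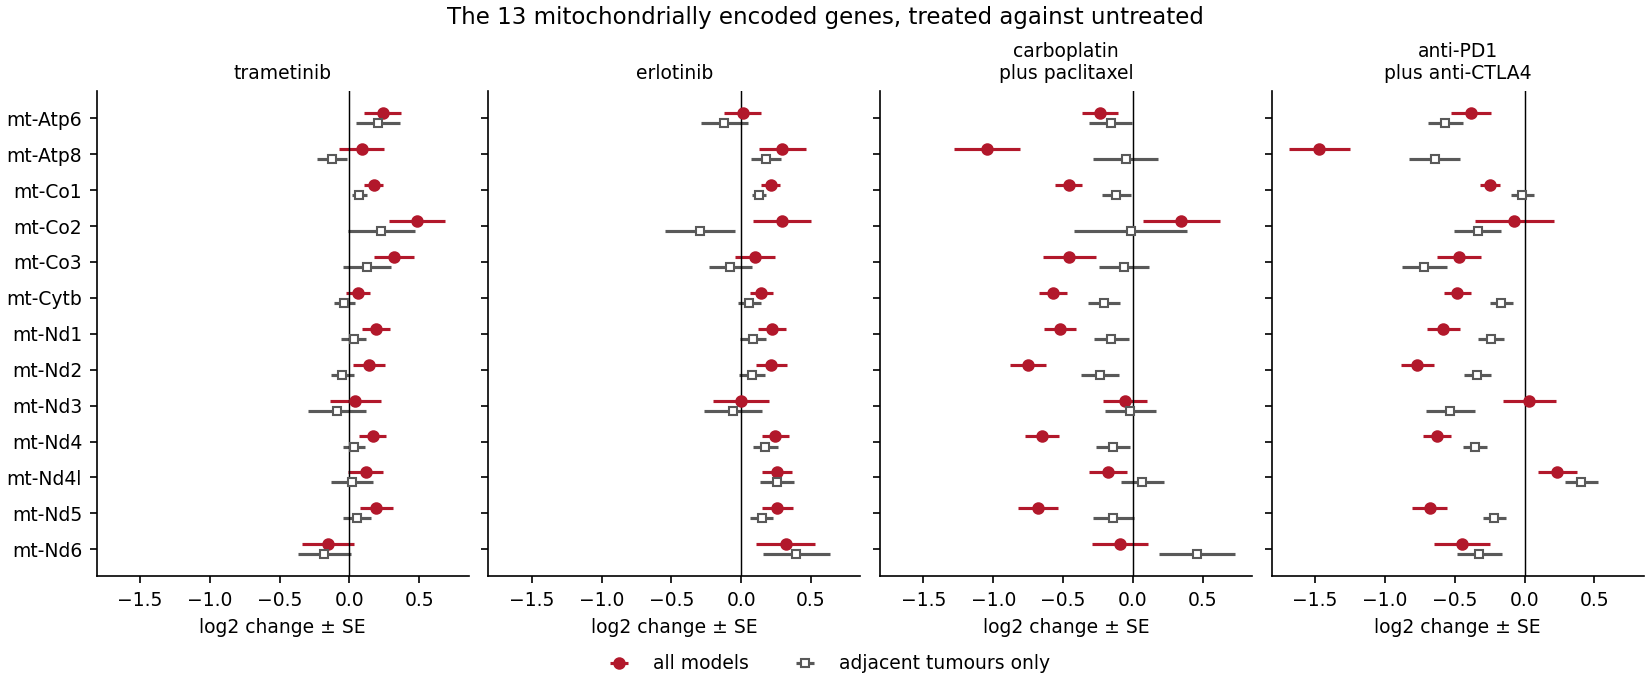
Log2 change of the 13 mitochondrial genes against untreated tumours (points, with bars of 1 SE) for the 4 treatments, from all models and from adjacent tumours only. For carboplatin plus paclitaxel the values of all models reach -1.04 for mt-Atp8, and the adjacent value of that gene is -0.05.

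The antibodies and carboplatin plus paclitaxel were compared directly in 16 models (48 against 48 tumours). All tumours lay in the 2 higher ranges of library number except the 3 each of 4T1 and p53RB-626 treated with carboplatin plus paclitaxel. The arms of a model shared a range only in 2153, 2208, 2224, 2250 and 9263. In the other models library number and treatment cannot be told apart, and no fit with adjacent tumours was made for this comparison. Of the nuclear members 29 of 83 were higher with the antibodies and 3 lower, and of the mitochondrial members 0 were higher and 5 of 13 lower. These are 38.6% and 38.5% of the members, against 15.5% of 23284 genes (7.16% higher, 8.39% lower). Median log2 differences were -0.20 and 0.14, beside -0.02. By complex 13 of 38 nuclear members of complex I, 3 of 4 of complex II and 8 of 17 of complex V were higher. The remaining higher members lay in complexes III (8 members) and IV (16 members). The 3 lower ones, Cox6b2, Cox6a2 and Cox8b, all belonged to complex IV.

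Core subunits were among the members called. Atp5a1 had medians of 777 CPM (551 to 1447) with the antibodies and 676 CPM (392 to 1112) with carboplatin plus paclitaxel, a log2 difference of 0.21 ± 0.03 (SE, adjusted p = 7.86e-06), and was higher in 15 and lower in 1 of 16 models. Ndufs1 differed by 0.19 ± 0.04 (SE, adjusted p = 0.000135), higher in 14 and lower in 2 of 16 models, Uqcrfs1 by 0.33 ± 0.06 (SE, adjusted p = 0.000215) and Atp5b by 0.21 ± 0.05 (SE, adjusted p = 0.00162). The arms overlapped for each of these genes. Uqcrc1 differed by 0.17 (adjusted p = 0.00611), Ndufv1 by 0.16 (adjusted p = 0.0078) and Sdha by 0.09 (adjusted p = 0.042). The stalk subunits Atp5o and Atp5j differed by 0.28 ± 0.05 (SE, adjusted p = 0.00013) and 0.25 ± 0.05 (SE, adjusted p = 0.00031), and the complex I accessory subunit Ndufa9 by 0.25 ± 0.05 (SE, adjusted p = 0.000221). Ndufa4l2 had medians of 10.4 CPM (2.40 to 142) and 6.69 CPM (2.28 to 101) and differed by 0.64 ± 0.13 (SE, adjusted p = 0.000346), beside 0.22 (adjusted p = 0.0401) for Ndufa4. Cox4i2 was higher, by 0.42 (adjusted p = 0.00556), and Cox6b2 lower, by -1.05 (adjusted p = 0.00185).

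Cox6a2 at -1.62 (adjusted p = 0.0042) and Cox8b at -1.68 (adjusted p = 0.0208) were lower along with all 19 muscle markers (median -2.09), and 8 of 11 adipocyte markers were lower as well. Of the mitochondrial members mt-Nd5 had medians of 862 CPM (338 to 2060.3) and 1235 CPM (193 to 3806.1) and differed by -0.42 ± 0.12 (SE, adjusted p = 0.00758), higher in 4 and lower in 12 of 16 models. mt-Atp8 differed by -0.97 (adjusted p = 0.0108), mt-Nd2 by -0.39 (adjusted p = 0.0138), mt-Nd1 by -0.32 (adjusted p = 0.0161) and mt-Nd4 by -0.34 (adjusted p = 0.0167). Without muscle-rich tumours 1 mitochondrial member was called. Leaving out 1 tumour per group left 0 or 1 mitochondrial and 3 to 15 nuclear calls, so the counts depend on having all tumours.

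Of the ribosome genes 28 of 88 were higher and 0 lower (median 0.12), of the transcription list 9 of 29 and 0, with Lrpprc at 0.22 (adjusted p = 4.74e-05) and Tfam at 0.19 (adjusted p = 0.00255), and of the assembly factors 7 of 43 and 0. The tricarboxylic acid cycle list had 13 of 25 higher, among them the fumarase Fh1 at 0.26 (adjusted p = 2.05e-05), and 1 lower, and the carrier list 9 of 19 higher and 1 lower. Glycolysis and hypoxia genes were higher in 17 of 22 with 0 lower (median 0.37), with Pgk1 at 0.49 (adjusted p = 5.48e-06) and Tpi1 at 0.40 (adjusted p = 6.25e-05). Among the regulators Nrf1 was higher by 0.13 (adjusted p = 0.00443) and Perm1 lower by -0.65 (adjusted p = 0.0274). Beside these lists, 15.5% of all genes were called (7.16% higher, 8.39% lower), near the shares of the assembly and regulator lists.

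When each model gave 1 difference per gene, no member was called in any of the 6 comparisons. At an unadjusted p under 0.05 trametinib then had 0 mitochondrial members called and 1 nuclear member higher and 3 lower, and erlotinib 2 mitochondrial members higher and 1 nuclear member higher and 2 lower. Carboplatin plus paclitaxel had 6 mitochondrial members lower and 2 nuclear members higher, and the antibodies 8 mitochondrial members lower and 5 nuclear members higher and 2 lower. Trametinib against erlotinib gave 1 mitochondrial and 1 nuclear member higher, and the antibodies against carboplatin plus paclitaxel 2 mitochondrial members lower and 18 nuclear members higher and 3 lower. These counts at an unadjusted p were not set against the share of all genes passing it, so they are not a result about the members.

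Both sets were then followed model by model as the difference of group means of the set level (log2 scale). With trametinib the mitochondrial set changed by a mean of 0.14 ± 0.11 (SE over 16 models), higher in 10 and lower in 6, and the nuclear set by -0.02 ± 0.09, higher in 9. With erlotinib the values were 0.18 ± 0.11, higher in 12, and -0.07 ± 0.07, higher in 7. With carboplatin plus paclitaxel they were -0.42 ± 0.16, lower in 12, and 0.09 ± 0.12, higher in 8 of 16. With the antibodies they were -0.39 ± 0.11 over 12 models, lower in 10, and 0.05 ± 0.08, higher in 7, and the mitochondrial minus nuclear difference was lower in 11 of 12. The 2 sets went the same way in 7 of 16 models with trametinib (5 up, 2 down), 7 with erlotinib (5 up, 2 down), 6 with carboplatin plus paclitaxel (1 up, 5 down) and 5 of 12 with the antibodies (1 up, 4 down). With adjacent tumours the mitochondrial changes were -0.04 ± 0.11, 0.05 ± 0.12, -0.08 ± 0.18 and -0.32 ± 0.08, and the last was lower in 6 of 6 models. The nuclear changes were then 0.01 ± 0.09, -0.08 ± 0.08, -0.01 ± 0.13 (lower in 6 of 9 models) and -0.10 ± 0.12 (lower in 4 of 6), so 3 of the 4 means, all but that of erlotinib, lay on the other side of 0 from those of all models. All 4 comparisons draw on the same untreated tumours.

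**Figure D5:**
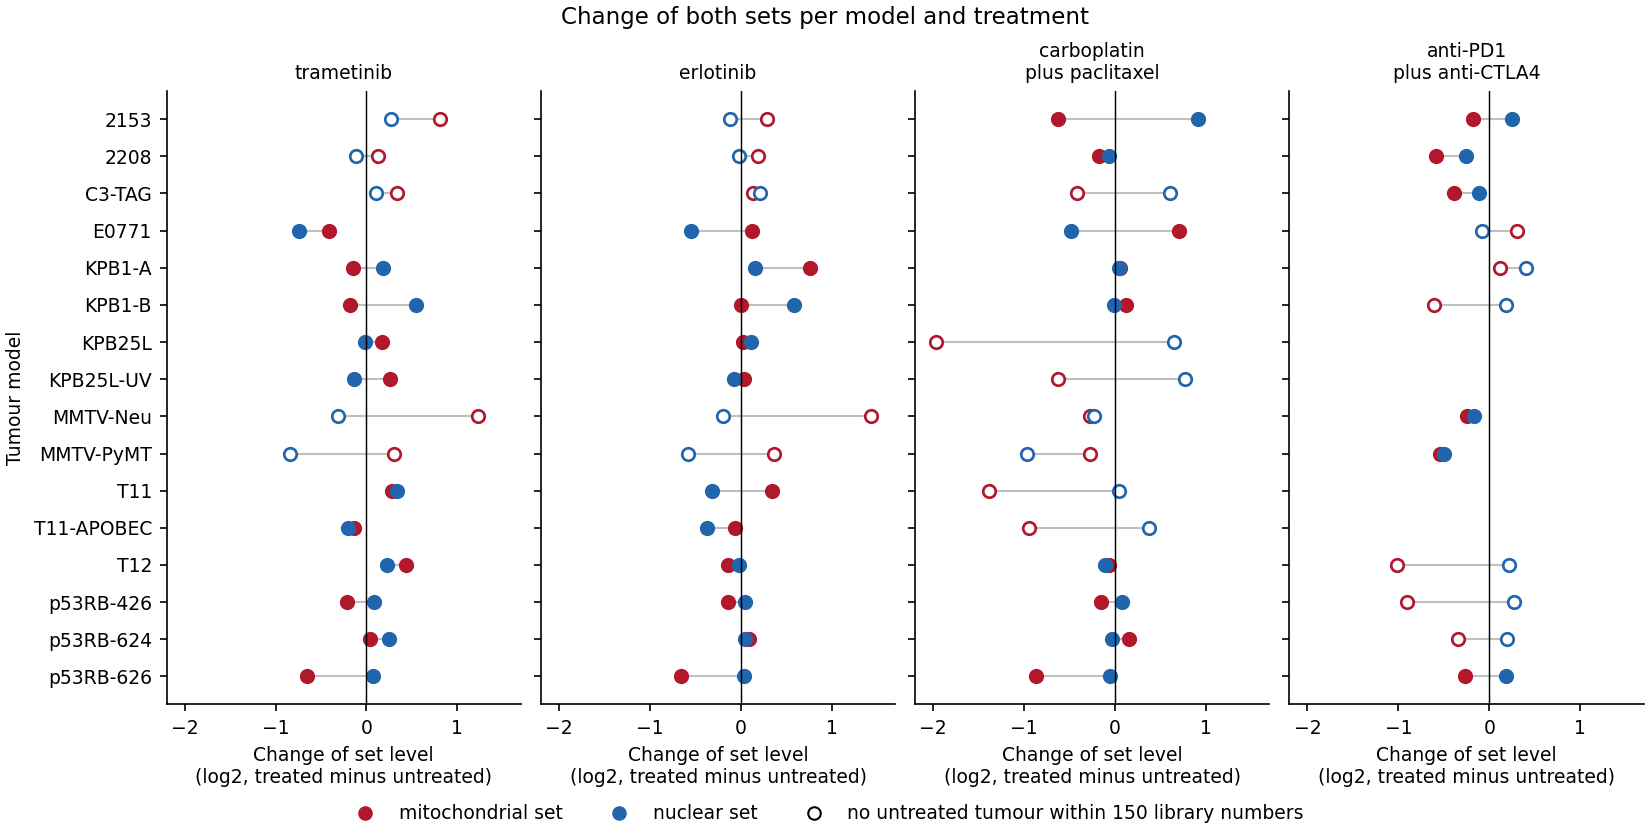
Change of the mitochondrial (red) and nuclear (blue) set level against untreated tumours (horizontal, difference of mean log2 CPM) per model (rows) and treatment (panels); open symbols mark models without adjacent untreated tumours. With carboplatin plus paclitaxel KPB25L has the widest gap, at -1.97 for the mitochondrial and 0.65 for the nuclear set.

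MMTV-Neu held the highest mitochondrial changes with the kinase inhibitors. mt-Nd2 was at 577, 706 and 739 CPM in untreated, 2154, 2154 and 2616 in erlotinib-treated and 1706, 1762 and 2388 in trametinib-treated tumours, with no overlap between untreated and treated. Fitted over all groups, the log2 change was 1.78 ± 0.37 (SE, adjusted p = 2.09e-05) with erlotinib and 1.57 ± 0.36 (SE, adjusted p = 0.000375) with trametinib. mt-Co1 stood at 5453, 5969.6 and 6384 CPM against 13406, 14073 and 15806 with erlotinib. In this model 9 of 13 mitochondrial members were higher with erlotinib, against 37.1% of 28928 genes called, and 7 with trametinib, against 22.3%. None of its untreated tumours was adjacent.

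In KPB25L the sets moved furthest apart with carboplatin plus paclitaxel, with 9 mitochondrial members lower and 46 nuclear members higher, against 17.4% of genes. mt-Nd4 stood at 2701, 2955 and 3881 CPM in untreated and 249, 637 and 952 in treated tumours, a log2 change of -2.46 ± 0.36 (SE, adjusted p = 1.98e-07). mt-Atp8 stood at 646, 679 and 732 against 4.32, 39.9 and 67.6 CPM. Every treated tumour was below every untreated one. Ndufv1 went the other way, from 90.9, 99.6 and 101 to 159.7, 186 and 201 CPM (log2 change 0.84 ± 0.17 (SE, adjusted p = 0.000132)), and Cox4i1 from 276, 299.6 and 305 to 477, 521 and 609 CPM. In T11 the mitochondrial set changed by -1.39 with 8 members lower, against 12.5% of genes, and mt-Nd2 ran from 2142, 2896, 3144 and 3322 to 401, 503 and 793 CPM. Neither model has adjacent untreated tumours for this treatment.

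The nuclear set moved in opposite directions in 2153 and MMTV-PyMT with carboplatin plus paclitaxel. In 2153 the count was 70 of 83 higher and 0 lower, against 18.8% of genes, with 3 adjacent untreated tumours. Cox4i1 stood at 166, 172 and 176 CPM untreated and 233, 315 and 772 treated, a log2 change of 1.36 ± 0.22 (SE, adjusted p = 1.87e-06), and Cox6b1 at 76.5, 83.1 and 83.2 and 104, 173 and 402. One treated tumour was far above the other 2. Atp5a1 overlapped instead, at 561, 629.6 and 662 and 541, 554 and 685 CPM (log2 change -0.06 (adjusted p = 0.873)). In MMTV-PyMT 2 nuclear members were higher and 72 lower, against 22.9% of genes. This model has no adjacent untreated tumours for the treatment, so the library number and the treatment cannot be told apart in it. Cox4i1 stood at 453, 488 and 535 CPM untreated and 255, 276 and 286 treated, a log2 change of -0.91 ± 0.22 (SE, adjusted p = 0.000767), and Uqcrc1 at 268, 271 and 295 and 181, 183 and 193, with no overlap in either gene.

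MMTV-PyMT was lower in the nuclear set in every treated arm, with 64 members lower and 2 higher with trametinib (27.5% of genes called), 44 and 2 with erlotinib (23.5%) and 30 and 2 with the antibodies (6.01%). These arms share the same 3 untreated tumours, which are adjacent in number to the antibody arm but not to the trametinib, erlotinib or carboplatin plus paclitaxel arms. With trametinib, Cox4i1 stood at 234, 284 and 296 CPM in treated tumours (log2 change -0.91 (adjusted p = 0.00055)), while Ndufs1 changed by 0.40 (adjusted p = 0.0158), from 59.1, 72.3 and 76.2 to 79.5, 88.7 and 114 CPM. KPB1-B was the counterpart, with 41 nuclear members higher and 0 lower with trametinib (13.2% of genes) and 37 and 0 with erlotinib (21.1%). These counts use all 6 untreated tumours. The nuclear set level changed by 0.55 with trametinib and 0.59 with erlotinib, but by 0.27 and 0.31 against its 3 adjacent untreated tumours.

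With the antibodies, T12 had 7 mitochondrial members lower, 20 nuclear members higher and 2 lower, against 12.9% of genes. mt-Nd5 stood at 3592, 3614 and 3749.5 CPM untreated and 692, 938 and 1423 treated, a log2 change of -1.86 ± 0.40 (SE, adjusted p = 0.000258), and mt-Cytb at 7294, 7519 and 7974 and 2591, 2780.0 and 4324. Cox5a, a nuclear subunit of complex IV, went from 41.3, 54.0 and 72.3 to 117, 118 and 139 CPM, and Uqcrfs1 from 29.8, 37.6 and 38.0 to 62.5, 64.1 and 72.6, each without overlap. Its Cox6a2 went from 1.25, 21.3 and 37.9 to 0.883, 1.51 and 1.71 CPM. T12 has no adjacent untreated tumours for the antibodies, so the library number and the treatment cannot be told apart in it. Against carboplatin plus paclitaxel, 4T1 had 67 nuclear members higher and 0 lower with the antibodies, and 3 mitochondrial members higher and 8 lower, against 28.2% of genes. Its mt-Atp8 stood at 1128, 1282 and 1463 CPM with carboplatin plus paclitaxel and 29.1, 90.3 and 109.9 with the antibodies (log2 difference -4.15 ± 0.78 (SE, adjusted p = 1.42e-05)), and Uqcrfs1 at 52.3, 56.9 and 57.0 and 120.1, 129.5 and 164 (1.26 ± 0.20 (SE, adjusted p = 2.9e-07)). C3-TAG and 2153 went the other way in that comparison, with 42 and 48 nuclear members lower and 0 and 1 higher, against 33.1% and 13.5% of genes. The arms of 4T1 and of C3-TAG lie in different ranges of library number, where number and treatment cannot be told apart, while those of 2153 are adjacent.

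Whether the changes differed between models was examined by a test of the model by treatment interaction (models with 1 tumour in an arm left out). With trametinib 12 of 13 mitochondrial and 76 of 83 nuclear members were called, against 60.5% of genes. With erlotinib these were 13 and 69, against 58.7%, with carboplatin plus paclitaxel 13 and 78, against 49.3%, and with the antibodies 9 and 70, against 43.3%. Between the kinase inhibitors 5 and 55 members were called, against 50.4%, and between the antibodies and carboplatin plus paclitaxel 11 and 77, against 60.04%.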

How the data were processed

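RNA came from cryopreserved tumours and libraries from a poly(A) mRNA kit, per the labels' protocols. The authors deposited estimated counts per gene symbol (8.35% of values not whole) and a normalized signal table, which equals the counts divided by each tumour's 75th percentile of values above 0 and multiplied by 1000 (largest relative deviation 6.76e-14, computed here). The submitters' processing notes name STAR, SAMtools, Picard, Salmon and mm10; roles, versions and strand are not stated there. Without strand, reads of overlapping genes cannot be told apart, and Salmon's division of reads between identical sequences sets the counts of several mitochondrial genes.

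Estimated counts were rounded and tested with edgeR 4.0.16 in R 4.3.3 (quasi-likelihood F-test, filterByExpr, TMM, model as a term), over all genes that passed, with Benjamini-Hochberg adjustment and calls at an adjusted p under 0.05. Levels are CPM and log2 CPM (prior count 2) computed from the deposited counts; set levels are means of log2 CPM over members. Changes within models came from one fit over all groups (28928 genes). Alternatives included DESeq2 1.42.0, limma 3.58.1 on log2 of the authors' table, other scalings, no filter, 1 replicate left out, and tumours with adjacent library numbers. Muscle-rich tumours (44) had summed muscle markers over 10 times the median of 148 CPM. The test was checked on simulated counts.

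Replicates were numbered in accession order. The members, lists and names were chosen with earlier results of these data known. Named were all mitochondrial genes, in each comparison the 6 called nuclear members of smallest p, a fixed set of core subunits, isoforms with their partners, 2 called genes of smallest p per list, and fixed regulators; others are said to be chosen afterwards. One member named by this rule is not reported here. The 3 KPB25L-UV tumours treated with carboplatin plus paclitaxel have library names beginning with KPB25L and were kept as titled.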

Additional observations from a re-analysis of the deposited data

Results flagged for a closer look

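The change after treatment differed between models for many members, and for many genes in general, by the test of the model by treatment interaction. Of 13 mitochondrial and 83 nuclear members it held for 12 and 76 with trametinib (60.5% of all genes), and 13 and 69 with erlotinib (58.7%). It held for 13 and 78 with carboplatin plus paclitaxel (49.3%), and 9 and 70 with anti-PD1 plus anti-CTLA4 (43.3%), each against untreated tumours. Between trametinib and erlotinib it held for 5 and 55 members. The mitochondrial share there, 38.5%, lay below the 50.4% of all genes. It held for 11 and 77 between the antibodies and carboplatin plus paclitaxel (60.04%). Library numbers differ between models and arms, and their part in these differences was not tested.

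Counts outside the members carried signal too. Nuclear copies of mitochondrial genes held a median of 1.29% of all counts. Of the names left out because they end in -ps, Ndufb1-ps had a mean of 31.4 CPM, Ndufa12-ps 23.1 CPM, Ndufs5-ps 9.17 CPM, Atp5pb-ps 3.84 CPM and Cox5b-ps 1.26 CPM. In 15 group levels checked no tumour stood apart from its group by the gap test.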

How the results depend on the processing

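Counts of called members moved with the choice of tumours and with the tool. Shares of all genes called are given above for adjacent tumours and, except for the antibodies, for models without them. Counts of the other alternative settings were not set against genes in general, so they show only how the calls moved. With adjacent tumours only, the calls were 0 mitochondrial and 18 nuclear (1 and 8 in all tumours) for trametinib, 0 nuclear (1) for erlotinib, 0 and 1 (7 and 14) for carboplatin plus paclitaxel, and 3 and 1 (8 and 14) for the antibodies. In models without adjacent tumours, an alternative chosen after seeing the data, they were 9 and 18 for trametinib, 7 and 5 for erlotinib, 7 nuclear for carboplatin plus paclitaxel and 43 nuclear (14 in all tumours) for the antibodies. The 43 were not set against genes in general, so they are not a result about the members. Library number and treatment cannot be told apart in those models. With one difference per model they were 0 in every comparison. With copies added, also chosen after seeing the data, mitochondrial calls were 3 for trametinib, 1 for erlotinib, 11 for carboplatin plus paclitaxel and 0 (from 1) for trametinib against erlotinib. Without muscle-rich tumours they were 0 mitochondrial for trametinib, 0 nuclear for erlotinib, 6 nuclear for carboplatin plus paclitaxel, 0 mitochondrial for trametinib against erlotinib and 1 (from 5) for the antibodies against carboplatin plus paclitaxel. Without MMTV-Neu, chosen after seeing the data, they were 0 mitochondrial for trametinib and for trametinib against erlotinib, and 24 nuclear for the antibodies. Without the 3 KPB25L-UV tumours of doubtful label, carboplatin plus paclitaxel had 6 nuclear calls. Without the filter, mitochondrial calls were 0 for trametinib and for trametinib against erlotinib, and with scaling that leaves out mitochondrial genes they were 1 for erlotinib and 0 for trametinib against erlotinib. DESeq2 called 3 mitochondrial members for trametinib and 1 for erlotinib. Limma on the authors' table called 0 mitochondrial for trametinib, and 7 nuclear for erlotinib, 33 for carboplatin plus paclitaxel, 30 for the antibodies and 18 (from 32) for the antibodies against carboplatin plus paclitaxel. Leaving out one replicate gave 0 to 1 mitochondrial and 5 to 6 nuclear calls for trametinib, 0 to 1 nuclear for erlotinib, 2 to 4 nuclear for carboplatin plus paclitaxel, 3 to 6 and 2 to 4 for the antibodies, 0 mitochondrial and 1 to 3 nuclear for trametinib against erlotinib, and 0 to 1 and 3 to 15 for the antibodies against carboplatin plus paclitaxel. Called values that changed sign were, with copies added, mt-Co2 at -0.29 for carboplatin plus paclitaxel and mt-Co3 at 0.034, mt-Nd3 at -0.56 and mt-Nd4l at -0.54 for the antibodies, and with adjacent tumours Atp5l at -0.0085 and Ndufc1 at -0.032 for the antibodies. The median set level was 10.2 with copies added (8.97 without) for the mitochondrial set and 6.25 with members of at least 5 CPM (5.89 with all) for the nuclear set. Over 3056 recomputed values of named members, 2725 kept their side of the threshold (173 of them, called in neither setting, changed sign), 237 lost and 88 gained a call, and 6 called values changed sign. The largest shift of the all-gene median by another scaling was 0.0999. The cause of these differences was not tested, apart from fewer tumours or models in the alternatives that leave some out. No paired analysis was possible because the labels carry no replicate numbers.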
